A study of Homo sapiens with 16 samples.

Results

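Ketamine and its metabolite (2R,6R)-HNK were compared by RNA-seq in HMC3 cells that received estradiol (E2) at the same time. HMC3 is an established cell line derived from human microglia. The comparison used 4 of the 16 libraries of the series, taken by their labels: 2 libraries of cells given 0.1 nM E2 with 400 nM ketamine (E2+ketamine) and 2 of cells given 0.1 nM E2 with 400 nM (2R,6R)-HNK (E2+(2R,6R)-HNK). All cells were kept in charcoal-stripped serum and then without serum before a treatment of 24 h in medium free of serum and phenol red. The other libraries came from cells given vehicle, 0.1 nM E2 alone, one of the compounds alone at 400 nM (ketamine, (2R,6R)-HNK or its counterpart (2S,6S)-HNK), or 0.1 nM E2 with 400 nM (2S,6S)-HNK, with 2 libraries each. No source states if the pair of libraries in each condition derived from different cultures, so the p-values measure the spread between these libraries, which may be technical, and all cells were of 1 line.

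Ketamine is an anaesthetic that blocks NMDA-type glutamate receptors and has a rapid antidepressant action at lower doses. The liver removes its N-methyl group and hydroxylates the cyclohexanone ring, which gives the hydroxynorketamines (HNK), and (2R,6R)-HNK and (2S,6S)-HNK are mirror images of each other. E2 acts through nuclear estrogen receptors and through the membrane receptor GPER1. Microglia are the resident macrophages of the brain, and type I interferon signals in such cells through JAK kinases and STAT factors to a set of antiviral genes.

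The E2+ketamine libraries held 62804472 and 62698279 counts, and the E2+(2R,6R)-HNK libraries held 75331706 and 72264098. Levels are given in CPM, counts scaled to the size of the library, with TMM factors. Of 18 markers of microglia and macrophages, few reached a mean of 1 CPM over these 4 libraries, CD68 and CD14 among them, and 7 had no count in any of them (CX3CR1, P2RY13, TYROBP, SALL1, C1QA, SPI1 and IRF8), so most defining markers of the labelled cell type were absent or near 0. Of 12 fibroblast and pericyte markers, 8 reached 1 CPM. The sum of the 12, mostly COL1A1, was 6290 to 6580 CPM with E2+ketamine and 5390 to 5520 CPM with E2+(2R,6R)-HNK. The fibroblast and pericyte markers COL3A1, DCN and LUM were at or near 0. The summed neuron markers, mostly TUBB3, were at 143 to 144 CPM and 87.5 to 91.0 CPM in the same order, and the summed astrocyte markers, mostly GJA1, at 96.6 to 101 CPM and 129 CPM. The part of these shifts in the results was not tested.

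Measured as the distance between group means in log2 CPM over all genes tested, the E2+(2R,6R)-HNK profile lay nearest to that of (2S,6S)-HNK alone, at 35.8, and second nearest to that of E2+(2S,6S)-HNK, at 45.1. Its distance was 56.4 to (2R,6R)-HNK alone, 59.1 to E2 alone and 58.7 to E2+ketamine. The E2+ketamine profile lay nearest to (2R,6R)-HNK alone, at 42.6, and then to E2 alone, at 50.1, with ketamine alone at 53.9. For both (2S,6S)-HNK libraries the nearest single library was one labelled E2+(2R,6R)-HNK, whereas every other library was nearest to its own replicate. Neither combination with E2 thus lay nearest to the same compound alone. Whether any library carries the label of another condition was not tested. The labels were kept as given, and every difference and interaction below rests on them.

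Of 16004 genes tested, 494 (3.09%) differed between E2+ketamine and E2+(2R,6R)-HNK by 1 or more on the log2 scale with an adjusted p under 0.05 (edgeR quasi-likelihood test, Benjamini-Hochberg adjustment). Of these, 203 (1.27%) were higher with ketamine and 291 (1.82%) were lower. At the adjusted p alone, 8325 genes (52.0%) differed, 4044 (25.3%) upwards and 4281 (26.7%) downwards, so that most genes passed in one direction or the other and a count in a gene list has to be read beside these shares. The median difference over all genes tested was -0.02 on the log2 scale. DESeq2 called 409 genes and shared 395 of them with edgeR. A requirement of 10 counts in every library left 286 calls.

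Among the genes that stood highest with E2+ketamine were the keratins KRT7 and KRT80 and the cell cycle inhibitor CDKN1C. KRT7, a keratin of simple epithelia, was at 653 and 694 CPM with E2+ketamine and at 197 and 201 CPM with E2+(2R,6R)-HNK. This was a difference of 1.76 (SE 0.027, adjusted p = 1.11e-43, edgeR), with no overlap between the groups. KRT80, another keratin gene, stood at 253 and 259 CPM against 87.7 and 90.0 CPM (log2 fold change 1.53). CDKN1C, the cyclin-dependent kinase inhibitor p57, was at 94.1 and 103 CPM against 30.1 and 28.8 CPM (log2 fold change 1.75, SE 0.047). For each of these 3 genes the E2+(2R,6R)-HNK cells also fell below E2 alone, where KRT7 was at 605 and 607 CPM.

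CPA4, a secreted carboxypeptidase, was at 185 and 178 CPM with E2+ketamine and at 54.9 and 58.5 CPM with E2+(2R,6R)-HNK (log2 fold change 1.68, SE 0.033, adjusted p = 1.33e-39, edgeR). With ketamine alone and (2R,6R)-HNK alone it was at 184 to 191 CPM, whereas both (2S,6S)-HNK groups were between 65.2 and 71.4 CPM. ID3, an inhibitor of DNA binding that BMP signals induce, showed the same order, at 28.2 and 29.0 CPM against 9.35 and 9.29 CPM (log2 fold change 1.62). ID1, of the same family and chosen after its values were seen, was at 7.21 and 6.77 CPM against 3.15 and 2.89 CPM (log2 fold change 1.21). KRT81, a hair keratin also chosen after its values were seen, was at 22.5 and 23.7 CPM against 8.68 and 9.38 CPM.

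KLF2, a transcription factor that responds to fluid flow and restrains inflammation, was at 13.6 and 15.5 CPM with E2+ketamine and 4.44 and 4.11 CPM with E2+(2R,6R)-HNK (log2 fold change 1.77, SE 0.11). CYP1B1, a cytochrome P450 that hydroxylates E2 and is induced by the aryl hydrocarbon receptor, was at 9.56 and 11.1 CPM against 3.31 and 3.11 CPM (log2 fold change 1.68). The remaining genes of the 12 with the largest rises under the naming rule were IGFN1 (1.57), ABTB2 (1.48), SLC26A1 (1.44), a sulfate transporter, CRISPLD2 (1.37) and ADAMTS16 (1.36), an extracellular protease. In these genes both libraries of one group lay above both of the other, as the rule required. KRT7 shares 282 bases with an antisense gene, CYP1B1 677 bases and SLC26A1 534 bases with IDUA on the other strand, and as the strand used in counting is not stated their reads cannot be told apart.

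**Figure D1:**
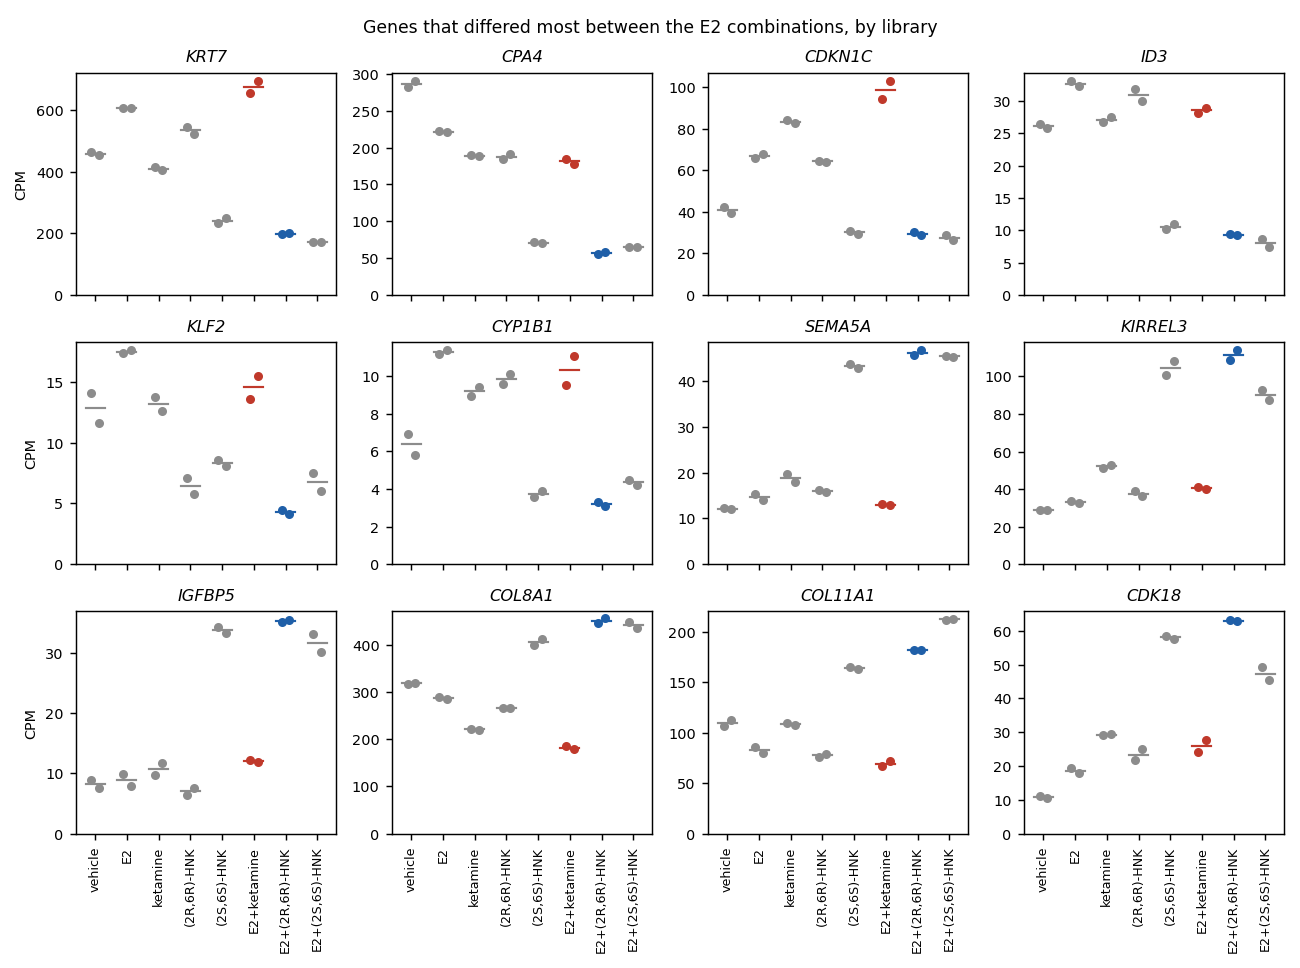
Level in CPM (linear axis from 0) of 12 genes in all 8 conditions, with a point for each library and a bar for the mean of 2. E2+ketamine is red and E2+(2R,6R)-HNK blue. In the first 6 panels the red points lie above the blue ones, as for KRT7 at 653 and 694 against 197 and 201 CPM, and in the last 6 below. The blue points lie nearer to both (2S,6S)-HNK groups than to the red points. For KLF2 they are apart from these groups, at 4.44 and 4.11 CPM against 8.56 and 8.09 CPM with (2S,6S)-HNK and 7.52 and 6.06 CPM with E2+(2S,6S)-HNK.

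Among the genes lower with E2+ketamine were SEMA5A, KIRREL3 and HTRA1. SEMA5A, a semaphorin that guides axons, was at 13.2 and 12.9 CPM with E2+ketamine and at 45.7 and 46.8 CPM with E2+(2R,6R)-HNK (log2 fold change -1.82, SE 0.059, adjusted p = 2.61e-30, edgeR). KIRREL3, an adhesion molecule of synapses, was at 40.9 and 40.3 CPM against 109 and 114 CPM (log2 fold change -1.46, SE 0.043). HTRA1, a secreted serine protease, was at 3.94 and 2.83 CPM against 12.7 and 11.6 CPM (log2 fold change -1.85, SE 0.11). From E2 alone the E2+ketamine level of SEMA5A differed by -0.17 (adjusted p = 0.0259), that of HTRA1 by 0.07 (adjusted p = 0.683) and that of KIRREL3 by 0.29 (adjusted p = 8.24e-07, edgeR) on the log2 scale.

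IGFBP5, which binds insulin-like growth factors, was at 12.2 and 11.9 CPM with E2+ketamine and 35.1 and 35.4 CPM with E2+(2R,6R)-HNK (log2 fold change -1.55). KCNAB2, a regulatory subunit of voltage-gated potassium channels, was at 4.07 and 3.94 CPM against 13.7 and 13.9 CPM (log2 fold change -1.79). CDK18, a cyclin-dependent kinase, was at 24.1 and 27.8 CPM against 63.1 and 62.9 CPM (log2 fold change -1.28). LEPR, the leptin receptor, fell by 1.4, NAV3, a cytoskeletal guidance protein, by 1.32, DNHD1, a dynein heavy chain domain protein, by 1.34 and MIR100HG, the host transcript of a microRNA cluster, by 1.34 on the log2 scale. PER2 and PER3, repressors of the circadian clock that were chosen after their values were seen, were lower by log2 fold changes of -1.23 and -1.27. PER3 was at 9.80 and 10.1 CPM against 23.5 and 24.6 CPM.

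Genes of the extracellular matrix were among the decreases. COL8A1, a short-chain collagen of vessel walls, was at 185 and 178 CPM with E2+ketamine and at 445 and 456 CPM with E2+(2R,6R)-HNK (log2 fold change -1.31, SE 0.026, adjusted p = 2.02e-39, edgeR). It also differed from the 289 and 285 CPM of E2 alone in both directions, down with ketamine (-0.66) and up with (2R,6R)-HNK (0.65). COL11A1, a minor fibrillar collagen, was at 67.4 and 71.6 CPM against 182 and 182 CPM (log2 fold change -1.39). TNXB, an extracellular matrix tenascin with a partial gene copy nearby, was at 5.18 and 5.51 CPM against 12.4 and 12.7 CPM (log2 fold change -1.23).

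Of 45 tested collagens and matrix proteins, 20 were lower with E2+ketamine, 10 were higher and 15 did not pass the adjusted p, with a median of -0.24, and of -0.16 after the correction for GC content. Among the non-fibrillar collagens it was 8 lower and 1 higher of 13. The fibroblast and pericyte markers COL1A1, COL1A2 and THY1 went the other way, COL1A1 from 4430 and 4560 CPM to 5090 and 5340 CPM. Of 16 metalloproteinases and their inhibitors, 10 were higher and 3 lower (median 0.29, and 0.14 after the correction for GC content). TIMP2, an inhibitor of these enzymes, was at 945 and 940 CPM against 764 and 770 CPM (log2 fold change 0.30). MMP1, a collagenase, was called at 1.69 on 16 and 34 counts against 9 and 10 counts. That call was lost without replicate 2 of E2+ketamine (1.04) and without either replicate of E2+(2R,6R)-HNK (1.59 and 1.80). HAS2, the hyaluronan synthase, was lower by a log2 fold change of -0.81.

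Several metal-responsive genes were higher with E2+ketamine. Metallothioneins are small cysteine-rich proteins that bind zinc and copper. MTF1 senses zinc and induces them together with the zinc exporter SLC30A1, and binds metal response elements in their promoters. MT1E was at 128 and 125 CPM with E2+ketamine and at 49.4 and 50.8 CPM with E2+(2R,6R)-HNK (log2 fold change 1.34, SE 0.040, adjusted p = 1.19e-31, edgeR). MT1X was at 14.1 and 13 CPM against 8.81 and 8.73 CPM (log2 fold change 0.63), and MT1F at 8.6 and 8.36 CPM against 5.0 and 5.05 CPM (log2 fold change 0.75). SLC30A1 was at 12.7 and 12.9 CPM against 6.34 and 6.90 CPM (log2 fold change 0.95, SE 0.097). SLC39A10, a zinc importer, went the opposite way, at 17.4 and 16.5 CPM against 21.9 and 21.3 CPM (log2 fold change -0.35).

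Of 9 tested genes of the metallothionein list, 4 were higher, 1 was lower and 4 did not pass (median 0.50). The lower one was MTF1 itself, the only regulator listed (-0.16), and it did not pass after the correction for GC content (-0.01), by DESeq2 (-0.13), in the libraries of the comparison alone (-0.14), without either replicate of E2+ketamine (-0.16 in both cases) or without replicate 2 of E2+(2R,6R)-HNK (-0.09). Metallothionein genes are near-identical in sequence, so that counting of uniquely mapped pairs could divide or lose their reads. Of 20 zinc transporters, 6 were higher and 7 lower. Their median was -0.02 and its sign changed with the scaling, being 0.01 by DESeq2. SLC39A1, a plasma membrane zinc importer, was at 216 and 214 CPM against 160 and 160 CPM (log2 fold change 0.43). SLC39A1 shares 2061 bases, and MT1X 321 bases, with another gene on the same strand.

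The promoters of MT1X and SLC30A1 are shown because both genes differed and both hold the metal response letters. The sequences are from RefSeq on GRCh38.p14 and run from 250 bases before to 50 bases after the start of the gene. Capitals mark TGCACNC and TGCGCNC, searched on both strands, so that a match on the other strand reads GNGTGCA or GNGCGCA. MT1X lies on the plus strand at chr16:56682220-56682519, with 4 matches between -150 and -47 from the start, and SLC30A1 on the minus strand at chr1:211579112-211579411, with 2 matches, at -49 and 24.
MT1X: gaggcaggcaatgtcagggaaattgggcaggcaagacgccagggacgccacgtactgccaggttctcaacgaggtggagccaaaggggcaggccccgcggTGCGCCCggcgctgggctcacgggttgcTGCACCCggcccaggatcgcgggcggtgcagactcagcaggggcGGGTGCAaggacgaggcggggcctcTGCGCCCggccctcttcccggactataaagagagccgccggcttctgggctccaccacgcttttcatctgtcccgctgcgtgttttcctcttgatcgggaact
SLC30A1: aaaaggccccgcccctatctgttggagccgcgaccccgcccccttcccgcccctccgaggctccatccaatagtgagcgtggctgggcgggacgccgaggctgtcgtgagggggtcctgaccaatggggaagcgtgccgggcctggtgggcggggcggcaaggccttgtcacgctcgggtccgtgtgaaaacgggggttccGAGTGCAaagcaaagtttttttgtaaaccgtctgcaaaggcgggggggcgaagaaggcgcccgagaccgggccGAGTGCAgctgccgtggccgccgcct
Among the 8625 tested genes with a promoter in the table, 11.5% held TGCACNC and 31.7% TGCGCNC. Among the 102 genes called higher that had one, the shares were 18.6% and 21.6%, and among the 141 called lower, 14.9% and 18.4%. The matches describe the letters only.

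Genes of the integrated stress response were mostly higher with E2+ketamine. In this pathway ATF4 is translated when cells lack amino acids or carry misfolded protein, and induces transporters and enzymes of amino acid metabolism. SLC3A2, the heavy chain shared by several amino acid transporters, was at 438 and 451 CPM with E2+ketamine and at 188 and 190 CPM with E2+(2R,6R)-HNK (log2 fold change 1.24, SE 0.026, adjusted p = 1.13e-38, edgeR). CHAC1, which degrades glutathione and is among the most ATF4-dependent genes, was at 19.8 and 20.6 CPM against 8.26 and 8.14 CPM (log2 fold change 1.30, SE 0.078). SLC7A11, the cystine transporter that pairs with SLC3A2, was at 25.3 and 25.1 CPM against 11.3 and 12.5 CPM (log2 fold change 1.08). SLC6A9, a glycine transporter, was at 15.0 and 14.7 CPM against 7.89 and 6.62 CPM (log2 fold change 1.03).

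In all 4 genes the E2+ketamine libraries lay above the libraries of every other condition. Of 38 tested genes of the list, 25 were higher, 7 were lower and 6 did not pass (median 0.24). Of the 7 regulators 5 were higher, and of the 31 targets 20. The endoplasmic reticulum chaperones, which the related unfolded protein response induces, were more divided, with 9 of 20 higher and 4 lower (median 0.07). HSPA5, the main chaperone of that compartment, was at 666 and 671 CPM against 536 and 537 CPM (log2 fold change 0.32). GDF15, a stress cytokine, was at 7.55 and 8.48 CPM against 6.56 and 7.15 CPM, which did not pass (log2 fold change 0.23, 95% interval 0.01 to 0.44, adjusted p = 0.0759, edgeR). It passed in the libraries of the comparison alone (0.24) and was at 0.05 after the correction for GC content. With each library left out it was 0.14 to 0.31.

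The CHAC1 promoter is shown because it holds the letters that ATF4 with a C/EBP partner is known to bind, TGATGNAA. The SLC6A9 promoter holds no match. That motif was added after the values of CHAC1 and SLC3A2 had been seen. CHAC1 is on the plus strand at chr15:40953221-40953520 (GRCh38.p14, RefSeq), and the capitals mark the match on the other strand, at -209 to -202 from the start.
CHAC1: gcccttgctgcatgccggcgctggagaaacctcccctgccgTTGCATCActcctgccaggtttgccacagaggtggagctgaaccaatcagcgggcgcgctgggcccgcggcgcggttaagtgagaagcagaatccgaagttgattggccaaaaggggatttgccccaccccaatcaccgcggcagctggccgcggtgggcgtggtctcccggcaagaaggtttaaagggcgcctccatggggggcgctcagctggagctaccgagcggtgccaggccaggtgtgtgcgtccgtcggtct
TGATGNAA was present on either strand in 1.51% of the promoters of tested genes. It was present in 8 of 102 promoters of genes called higher (7.84%), in 2 of 141 of those called lower (1.42%) and in 5 of 18 of the ATF4 list (27.8%).

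Targets of NRF2, the factor that induces antioxidant genes, were higher in 18 of 24 cases and lower in 1 (median 0.32). NQO1, a quinone reductase, was at 142 and 139 CPM with E2+ketamine and at 61.3 and 61.6 CPM with E2+(2R,6R)-HNK (log2 fold change 1.2, SE 0.035, adjusted p = 6.23e-32, edgeR). HMOX1, the heme oxygenase, was at 25.9 and 25.3 CPM against 11.9 and 12.7 CPM (log2 fold change 1.06). All 5 tested enzymes of the pentose phosphate group and both genes of iron handling were higher. SLC7A11 stands in this list as well as in that of ATF4, and shares 865 bases with an antisense gene. NQO1 shares 575 bases with a gene on the other strand.

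More sterol genes were lower than higher with E2+ketamine. Cells make cholesterol from acetyl-CoA under the control of SREBP2, which INSIG1 holds back. INSIG1 was at 225 and 229 CPM with E2+ketamine and at 520 and 508 CPM with E2+(2R,6R)-HNK (log2 fold change -1.18, SE 0.024, adjusted p = 5.81e-39, edgeR). HMGCS1, the synthase that makes HMG-CoA, was at 77.4 and 77.8 CPM against 163 and 166 CPM (log2 fold change -1.09, SE 0.032). For HMGCS1 the E2+ketamine libraries were the lowest of all 16. Of 29 tested genes of cholesterol synthesis and uptake, 19 were lower, 7 were higher and 3 did not pass (median -0.20). Against E2 alone the median of this list was -0.02 with E2+ketamine and 0.27 with E2+(2R,6R)-HNK. Among the 20 enzymes of synthesis, 13 were lower and 5 higher. HMGCS1 shares 2497 bases with an antisense gene.

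In energy metabolism the parts moved in different directions. Of 76 respiratory chain subunits, which carry electrons and make ATP in mitochondria, 55 were higher with E2+ketamine and 7 lower (median 0.20), among them 10 of 10 of complex IV. NDUFA11 of complex I was at 217 and 229 CPM against 151 and 155 CPM (log2 fold change 0.55). Of 36 genes of glycolysis and hypoxia, 12 were higher and 19 lower (median -0.09, and -0.04 after the correction for GC content). The 21 genes of glucose uptake and glycolysis divided into 11 higher and 7 lower, whereas of the 15 targets of hypoxia signalling 1 was higher and 12 were lower. PKM, the pyruvate kinase, was at 5900 and 5930 CPM against 4080 and 4140 CPM (log2 fold change 0.53). CA9, a carbonic anhydrase induced by hypoxia, was at 3.58 and 3.70 CPM against 7.26 and 8.17 CPM (log2 fold change -1.08).

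Of 77 cytosolic ribosomal proteins 51 were higher and 8 lower, by small amounts (median 0.10). RPS2 of the small subunit was at 5430 and 5480 CPM against 4330 and 4140 CPM (log2 fold change 0.37). Of 22 genes of translation elongation and mTOR, 9 were higher and 6 lower (median 0.04, and 0.10 after the correction for GC content), and EIF4EBP1, a repressor of cap-dependent translation, was at 257 and 264 CPM against 194 and 184 CPM (log2 fold change 0.46). Of 39 chaperones of the cytosol and mitochondria, 21 were higher and 5 lower (median 0.12), with 10 higher and none lower among the 17 genes of the HSP70 system. HSPB1, a small heat shock protein, was at 815 and 884 CPM against 563 and 572 CPM (log2 fold change 0.58). HSPB8, of the same family, was called at 1.08 on 46 and 43 counts against 23 and 29, and that call was lost without replicate 1 of E2+ketamine (1.04) and without replicate 1 of E2+(2R,6R)-HNK (0.90). CHORDC1, an HSP90 partner, was at 21.6 and 20.2 CPM against 18.0 and 17.9 CPM (log2 fold change 0.22).

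**Figure D2:**
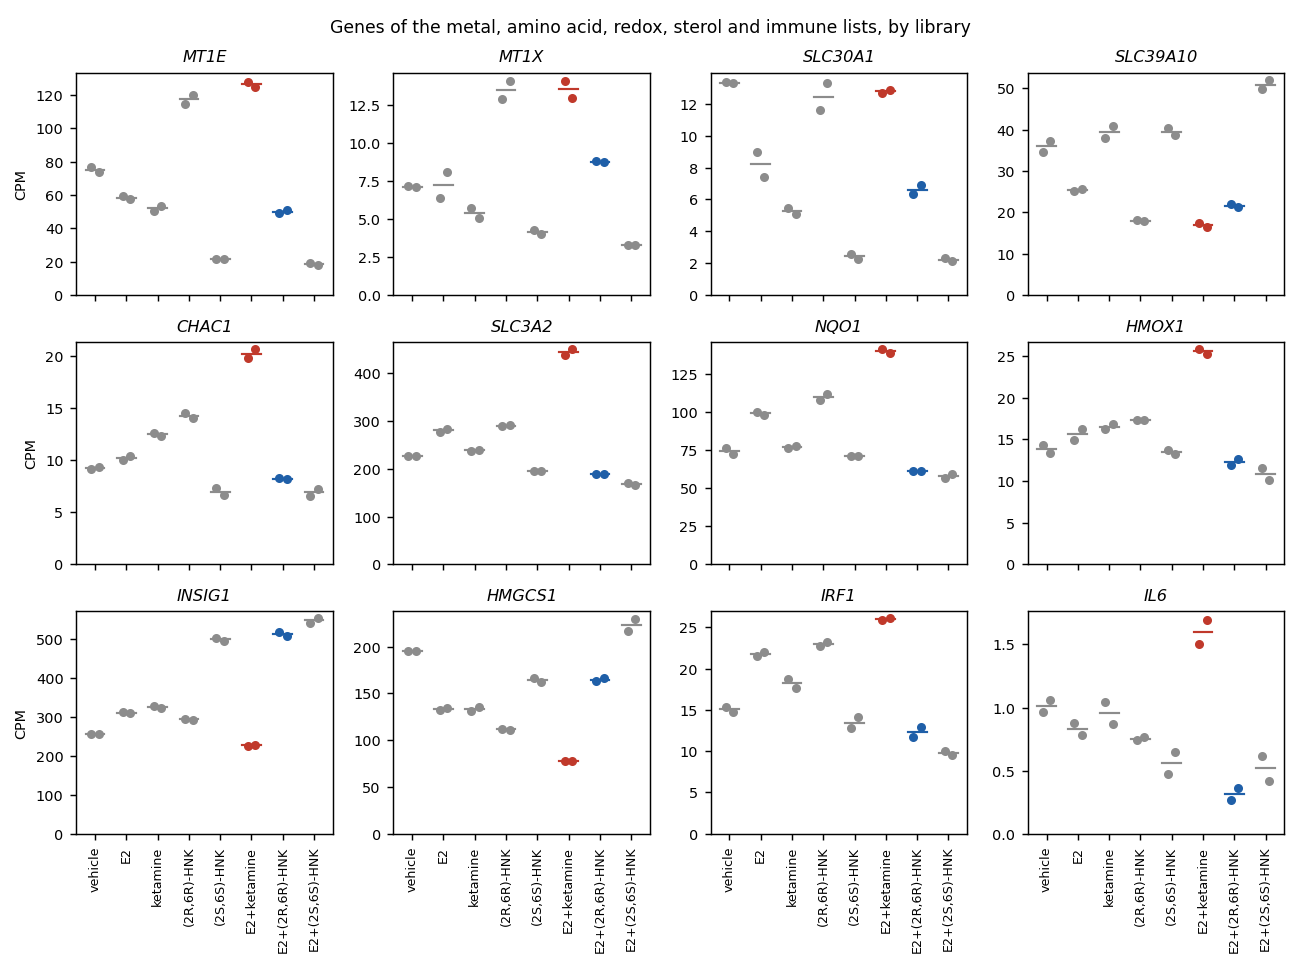
Level in CPM (linear axis from 0) of 12 genes of the metal, amino acid, redox, sterol and immune lists in all 8 conditions, a point for each library and a bar for the mean of 2, with E2+ketamine in red and E2+(2R,6R)-HNK in blue. CHAC1, SLC3A2, NQO1, HMOX1 and IL6 were highest and HMGCS1 lowest with E2+ketamine, and MT1E was at 128 and 125 CPM there beside 115 and 120 CPM with (2R,6R)-HNK alone.

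The type I interferon response, on which the study centres, was chosen on these samples, so its counts are no independent evidence of a direction. Of 48 tested genes 23 were higher with E2+ketamine, 8 were lower and 17 did not pass (median 0.36). The 36 antiviral effectors divided into 20 higher and 3 lower, whereas none of the 4 receptors and kinases was higher and 2 were lower. IRF1, a transcription factor that interferon induces, was at 25.9 and 26.1 CPM against 11.7 and 12.9 CPM (log2 fold change 1.08, SE 0.067, adjusted p = 4.11e-19, edgeR). It shares 2805 bases with an antisense gene. MX1, a GTPase that blocks viral replication, was at 5.91 and 5.51 CPM against 3.09 and 2.72 CPM (log2 fold change 0.97), and shares 562 bases with TMPRSS2.

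OAS1, which senses double-stranded RNA, was at 1.42 and 1.28 CPM against 0.416 and 0.419 CPM (log2 fold change 1.69). OAS2, of the same family, was called at 1.47 (adjusted p = 0.0472, edgeR) on 19 and 15 counts against 8 and 7. The OAS2 call did not hold by DESeq2 (1.52), without a filter on low counts (1.47), with halved counts (1.47) or without any one of the 4 libraries (1.30 to 1.63). MX2 was at 1.28 and 0.955 CPM against 0.698 and 0.559 CPM (log2 fold change 0.83), and its adjusted p did not hold without replicate 1 of E2+ketamine (0.60) or replicate 2 of E2+(2R,6R)-HNK (0.68). IRF7, a master regulator of interferon genes, was at 58.1 and 65.6 CPM against 45.3 and 44.5 CPM (log2 fold change 0.46). IRF9, a transcription factor of the interferon response, was at 26.4 and 28.4 CPM against 26.7 and 24.3 CPM, with overlapping libraries (log2 fold change 0.10, 95% interval -0.02 to 0.22, adjusted p = 0.141, edgeR). Without replicate 1 of E2+(2R,6R)-HNK its difference was 0.17 and passed.

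The IRF1 promoter is shown because its known STAT site carries the letters TTCNNNGAA, in capitals at -124 to -116 from the start. It lies on the minus strand at chr5:132490724-132491023 (GRCh38.p14, RefSeq).
IRF1: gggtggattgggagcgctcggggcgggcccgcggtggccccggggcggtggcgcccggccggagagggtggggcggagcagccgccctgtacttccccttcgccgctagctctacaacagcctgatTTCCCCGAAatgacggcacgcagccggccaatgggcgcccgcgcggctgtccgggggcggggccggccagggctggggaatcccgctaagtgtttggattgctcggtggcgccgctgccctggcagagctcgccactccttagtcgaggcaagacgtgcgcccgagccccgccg
TTCNNNGAA reads alike on both strands and was present in 6.42% of the promoters of tested genes. It was present in 12 of 102 promoters of genes called higher (11.8%), in 9 of 141 of those called lower (6.38%) and in 8 of 25 of the interferon list (32.0%). The promoters of SOCS1, IL6 and ID1 hold no match to these letters, whereas that of ID3 does. The interferon-stimulated response element was searched on both strands as a pattern with a fixed spacing between its repeats. A match was in 2.89% of all tested, in 3.92% of those called higher and in 3.55% of those called lower. It was in 14 of 25 of the interferon list (56.0%). The OAS1 promoter holds no match to that pattern. Repeats at another spacing would be missed, so this does not show that the OAS1 promoter lacks the element.

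Of the genes of JAK-STAT signalling itself more were lower than higher. Of 29 JAK, STAT and SOCS genes 14 were lower with E2+ketamine, 5 were higher and 10 did not pass (median -0.11), and after the correction for GC content 10 were lower and 3 higher. STAT3 was at 159 and 155 CPM against 198 and 192 CPM (log2 fold change -0.31, SE 0.028, adjusted p = 1.7e-13, edgeR). OSMR, the receptor of oncostatin M, was at 123 and 123 CPM against 209 and 209 CPM (log2 fold change -0.77, SE 0.029). JAK3 was at 3.60 and 4.61 CPM against 6.63 and 6.35 CPM (log2 fold change -0.66). JAK2 was at 4.58 and 3.77 CPM against 5.82 and 5.21 CPM (log2 fold change -0.40), and its adjusted p did not hold after the correction for GC content (-0.25), without replicate 2 of E2+ketamine (-0.27) or without replicate 1 of E2+(2R,6R)-HNK (-0.32). JAK1 was at 79.4 and 77.5 CPM against 87.1 and 85.7 CPM (log2 fold change -0.14), and at -0.01 after that correction did not pass.

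The SOCS proteins inhibit JAK kinases. SOCS1 was at 1.74 and 1.91 CPM with E2+ketamine and at 1.06 and 0.600 CPM with E2+(2R,6R)-HNK (log2 fold change 1.13, SE 0.26). SOCS3 was at 64.0 and 66.4 CPM against 49.8 and 47.3 CPM (log2 fold change 0.43). Of 20 tested cytokines and chemokines, 5 were higher, 2 were lower and 13 did not pass (median 0.24, and 0.14 after the correction for GC content). IL6, a cytokine that signals through STAT3, was low throughout, at 1.50 and 1.69 CPM against 0.268 and 0.363 CPM, or 89 and 99 counts against 20 and 26 (log2 fold change 2.33, SE 0.31, adjusted p = 1.2e-08, edgeR). The chemokine CXCL5 was called at 1.44 on 23 and 19 counts against 5 and 14. The CXCL5 call did not hold by DESeq2 (1.47), without a filter (1.44), without either replicate of E2+ketamine (1.30 and 1.56) or without replicate 1 of E2+(2R,6R)-HNK (0.86), and without replicate 2 of E2+(2R,6R)-HNK it was 2.38. IL7R, the interleukin 7 receptor, was at 8.19 and 9.07 CPM against 12.9 and 11.5 CPM (log2 fold change -0.50).

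Complement genes, which opsonise and lyse targets, were lower in 7 of 17 cases and higher in 2 (median -0.17, and -0.05 after the correction for GC content). MASP1, a protease of the lectin pathway, was called at -1.57 on 12 and 20 counts against 59 and 59. C5 was called at -1.76 on 12 and 4 counts against 34 and 34, and lost that call without replicate 2 of E2+ketamine (-1.19), whereas without replicate 1 it was -2.74. C1R was at 12.7 and 12.2 CPM against 12.5 and 11.7 CPM, with overlapping libraries (log2 fold change 0.04, 95% interval -0.13 to 0.21, adjusted p = 0.715, edgeR). C1R shares 672 bases with C1RL.

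SIN3A, the scaffold of a corepressor complex that the study examined together with STAT3, was at 66.6 and 62.3 CPM with E2+ketamine and 77.3 and 82.1 CPM with E2+(2R,6R)-HNK (log2 fold change -0.31, SE 0.038). Of 19 tested members of the complex 10 were lower, 3 were higher and 6 did not pass (median -0.08). After the correction for GC content 7 were lower and 6 higher. BRMS1, a subunit named for suppressing metastasis, stood apart in the complex at 198 and 195 CPM against 94.4 and 101 CPM (log2 fold change 1.01, SE 0.032, adjusted p = 6.3e-31, edgeR).

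EEF2, the elongation factor whose kinase has been tied to ketamine action, was at 5560 and 5730 CPM against 5740 and 5780 CPM (log2 fold change -0.03, 95% interval -0.06 to 0.01, adjusted p = 0.166, edgeR). It passed after the correction for GC content (-0.15), with upper-quartile scaling (-0.05) and without replicate 2 of E2+ketamine (-0.05). Its kinase EEF2K was at 42.6 and 42.9 CPM against 54.3 and 51.5 CPM (log2 fold change -0.31). BDNF, a neurotrophin, was at 31.2 and 28.9 CPM against 24.3 and 23.5 CPM (log2 fold change 0.33, SE 0.057). DLG4, the synaptic scaffold PSD-95, was at 26.0 and 27.1 CPM against 41.7 and 38.2 CPM (log2 fold change -0.59). SYN1, a synaptic vesicle protein, was at 0.642 and 0.699 CPM against 0.523 and 1.17 CPM (log2 fold change -0.33, 95% interval -1.02 to 0.35, adjusted p = 0.435, edgeR), and its sign turned without replicate 2 of E2+(2R,6R)-HNK (0.36). Of 14 tested glutamate receptor and plasticity genes, 3 were higher, 4 lower and 7 did not pass (median -0.34).

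Of 15 estrogen receptors and targets, 4 were higher, 2 lower and 9 did not pass (median 0.26, and 0.14 after the correction for GC content). GPER1, the membrane receptor of E2, was at 1.81 and 1.71 CPM with E2+ketamine and at 0.778 and 0.810 CPM with E2+(2R,6R)-HNK (log2 fold change 1.14, SE 0.25, adjusted p = 0.000127, edgeR). IGFBP4, which binds insulin-like growth factors, was at 259 and 278 CPM against 176 and 179 CPM (log2 fold change 0.60).

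Immediate early genes, the first that growth signals induce, were higher in 18 of 26 cases and lower in 4 (median 0.34), and IER3 of this list was at 219 and 226 CPM against 144 and 144 CPM (log2 fold change 0.63). Annexins and S100 proteins, which bind calcium, were higher in 14 of 21 cases and lower in none (median 0.34). S100A2 was at 17.9 and 16.9 CPM against 8.56 and 8.45 CPM (log2 fold change 1.03), and ANXA1, which limits inflammation, at 62.5 and 61.2 CPM against 41.6 and 41.1 CPM (log2 fold change 0.58). ANXA10 was called on 7 and 9 counts against 2 and 1, too few for a fold change, and lost its adjusted p without a filter and without any one of the 4 libraries. Of 23 p53 targets 11 were higher and 4 lower (median 0.11), with TP53I3, an oxidoreductase, at 41.8 and 43.1 CPM against 25.1 and 27.8 CPM.

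Cell cycle and replication genes showed no common direction, with 18 of 44 higher and 15 lower. Of the 19 replication genes 10 were higher and 4 lower, and of the 18 mitosis genes 3 were higher and 10 lower. MCM5, a helicase subunit, was at 521 and 528 CPM against 379 and 378 CPM (log2 fold change 0.47). Of 25 SRF and YAP targets 11 were higher and 8 lower, with a median of 0.01 that upper-quartile scaling turned to -0.01. AJUBA, a regulator of YAP, was at 533 and 553 CPM against 368 and 373 CPM (log2 fold change 0.55).

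Of 27 replication-dependent histones 6 were higher, none was lower and 21 did not pass (median 0.45). HIST1H2BK was at 67.4 and 71.2 CPM against 40.1 and 39.1 CPM (log2 fold change 0.81). Of 23 long noncoding RNAs 4 were higher and 10 lower (median -0.10), but after the correction for GC content 9 were higher and 6 lower. MEG3 was at 76.1 and 73.4 CPM against 130 and 129 CPM (log2 fold change -0.80). MALAT1 was at 80.4 and 67.6 CPM against 107 and 112 CPM (log2 fold change -0.56), and shares 8121 bases with TALAM1. CEBPD, a transcription factor, did not pass at 0.15 (95% interval 0.01 to 0.30, adjusted p = 0.0615, edgeR), and neither did CPZ, a carboxypeptidase, at -0.12 (-0.29 to 0.05) nor PDGFB, a growth factor, at -0.09 (-0.25 to 0.07). After the correction for GC content CEBPD was at -0.06, and CPZ (-0.27) and PDGFB (-0.21) passed. CEBPD passed in the libraries of the comparison alone (0.17) and with halved counts (0.16). CPZ passed without replicate 2 of E2+ketamine (-0.25) and was at -0.01 without replicate 1.

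**Figure D3:**
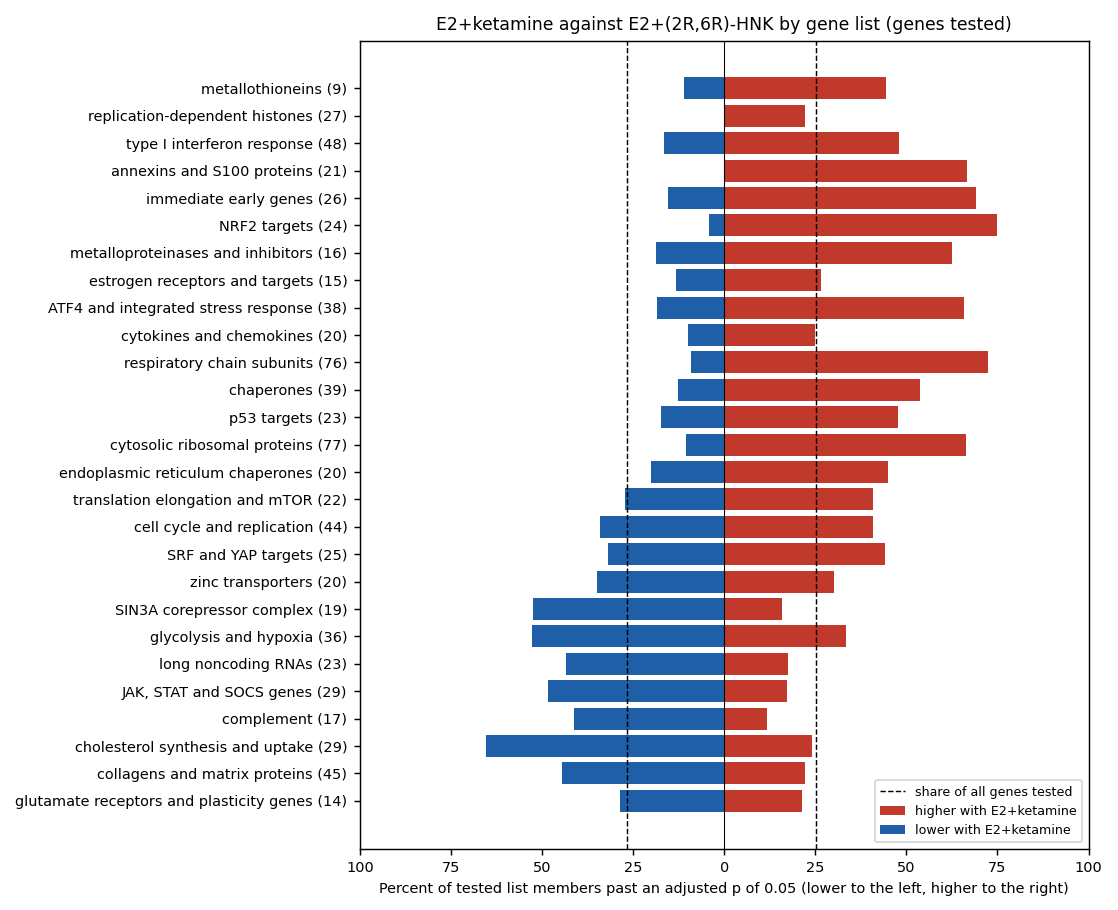
Percent of the tested genes of each list that passed an adjusted p of 0.05, higher with E2+ketamine to the right (red) and lower to the left (blue), with the number tested in brackets. The dashed lines mark the shares of all genes tested, 25.3% higher and 26.7% lower, and the lists are ordered by their median difference.

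The same compounds were then compared without E2, at the same dose and time, in 4 other libraries. At the thresholds of the study 135 of 16004 genes (0.844%) differed between ketamine and (2R,6R)-HNK, 97 (0.606%) upwards and 38 (0.237%) downwards. DESeq2 called 48, and with 10 counts required in every library 54 were called. At the adjusted p alone 7265 genes (45.4%) passed, 22.8% of all tested upwards and 22.6% downwards. By the naming rule, the largest rises with ketamine were those of KLHL24, a ubiquitin ligase adaptor (1.4), SLC39A10 (1.13), NID2, a basement membrane protein (1.04), KLF2 (1.03) and COL4A4, a basement membrane collagen (1.0), and the largest falls those of MT1X (-1.31), MT1F (-1.23), SLC30A1 (-1.23) and MT1E (-1.17).

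Whether the difference between the compounds depended on E2 was tested as an interaction, the difference with E2 minus that without. At a size of at least 1 and an adjusted p under 0.05 it was found for 1111 genes (6.94%), 457 upwards (2.86%) and 654 downwards (4.09%), and at the adjusted p alone for 9034 (56.4%). Of the 494 genes called with E2, 363 also passed the adjusted p of the interaction, which holds the same difference with E2 that chose them. Without E2, 391 of the 494 did not pass, 93 passed in the opposite direction and 10 in the same direction. Only 74 of the 494 had a mean of at least 5 CPM in the libraries with E2, so that not passing does not show the absence of a difference. Both comparisons called 21 genes, 2 of them in the same direction. Across the 16004 genes the Spearman correlation of the 2 differences was -0.393, given as a description, since genes are not independent of each other.

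Some metal-responsive genes, named for the size of their difference without E2 or of their interaction, reversed. MT1E was at 128 and 125 CPM with E2+ketamine against 49.4 and 50.8 CPM with E2+(2R,6R)-HNK, but at 50.6 and 53.6 CPM with ketamine alone against 115 and 120 CPM with (2R,6R)-HNK alone. The interaction was 2.51 (SE 0.056, adjusted p = 1.53e-36, edgeR). SLC30A1 was at 5.45 and 5.10 CPM with ketamine alone and at 11.6 and 13.3 CPM with (2R,6R)-HNK alone (interaction 2.18, SE 0.14). For MT1X the interaction was 1.94 and for MT1F 1.99. The importer SLC39A10 reversed the other way, at 37.9 and 41.0 CPM with ketamine alone and 18.2 and 17.8 CPM with (2R,6R)-HNK alone (interaction -1.48, SE 0.081). KLHL24 was at 9.32 and 8.97 CPM against 10.6 and 12.9 CPM with E2 and at 16.9 and 16.5 CPM against 6.17 and 6.54 CPM without it (interaction -1.76), and its difference with E2 (-0.36) did not pass after the correction for GC content (-0.20) or without replicate 2 of E2+(2R,6R)-HNK (-0.21). The median of the 9 tested genes of the metallothionein list was 0.50 with E2 and -0.83 without, where 5 were lower and 1 was higher (22.6% and 22.8% of all genes tested). The interaction passed in 6 of the 9, against 56.4% of all genes tested.

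Single genes of the redox, amino acid and interferon lists reversed too, but these lists divided without E2. There 14 interferon genes were higher and 13 lower (median -0.04), 14 and 16 of the ATF4 list (median -0.06), and 5 and 10 of the NRF2 targets (median -0.05), of 48, 38 and 24 tested, against 22.8% higher and 22.6% lower of all genes. Of the 76 respiratory chain subunits 10 were higher and 49 lower without E2 (median -0.235). Of the 77 cytosolic ribosomal proteins 14 were higher and 50 lower (median -0.128). With E2 more members of both lists were higher than lower. NQO1 was at 76.4 and 77.7 CPM with ketamine alone and 108 and 112 CPM with (2R,6R)-HNK alone (interaction 1.71, SE 0.050). SLC3A2 (interaction 1.52), IRF1 (1.41), BRMS1 (1.59) and MX1 (1.77) also had differences of opposite sign without E2, each past the adjusted p in both comparisons. STAT3 (interaction -0.38) differed by 0.07 without E2, which did not pass by DESeq2 (0.06) or with any one library left out (0.05 to 0.09) and was -0.04 after the correction for GC content. HMOX1 (-0.07), SLC6A9 (-0.04) and OAS1 (-0.25) did not pass without E2. SLC7A11 kept its direction, at 20.7 and 21.3 CPM against 11.8 and 12.7 CPM without E2 (log2 fold change 0.78). Its interaction of 0.30 did not pass without replicate 1 of ketamine (0.28), replicate 2 of (2R,6R)-HNK (0.24) or replicate 1 of E2+(2R,6R)-HNK (0.23). After the correction for GC content that interaction was 0.62 and passed. KLF2 kept its direction too, at 13.8 and 12.6 CPM against 7.07 and 5.74 CPM (interaction 0.73), and so did BDNF, whose difference was 0.65 without E2 and 0.33 with it (interaction -0.32, and -0.03 after the correction for GC content, which did not pass). COL8A1 was lower with ketamine in both, by -0.27 without E2 and -1.31 with it (interaction -1.04).

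CPA4 was at 190 and 188 CPM with ketamine alone and 184 and 191 CPM with (2R,6R)-HNK alone (log2 fold change 0.01, adjusted p = 0.73, edgeR), and its interaction was 1.66 (SE 0.044). CYP1B1 was at 8.97 and 9.42 CPM against 9.59 and 10.1 CPM (interaction 1.78, SE 0.14). Its difference without E2 was -0.10 and did not pass. After the correction for GC content that difference was -0.23 and passed, but not with the replicate number added as a block (-0.23). KRT7, at 413 and 406 CPM against 544 and 522 CPM, reversed, with a difference of -0.38 without E2 and an interaction of 2.14. In the other direction KCNAB2 (-2.37), IGFBP5 (-2.17), HTRA1 (-2.17), SEMA5A (-2.06) and KIRREL3 (-1.93) had the largest interactions among genes of at least 5 CPM. These 5 also reversed, being higher with ketamine without E2 by 0.59, 0.63, 0.32, 0.23 and 0.47 in the same order, each past the adjusted p. Without E2 SEMA5A did not pass after the correction for GC content (0.06) or without replicate 1 of ketamine (0.17), and HTRA1 did not pass by DESeq2 (0.31), without either replicate of ketamine (0.32 and 0.33) or without replicate 1 of (2R,6R)-HNK (0.29).

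**Figure D4:**
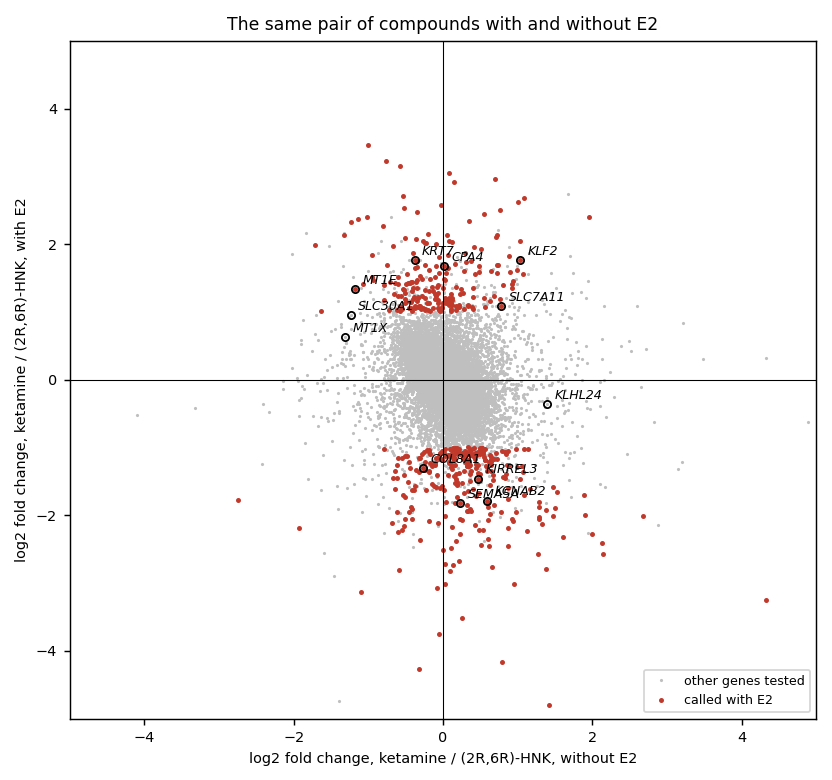
Log2 fold change of ketamine over (2R,6R)-HNK for each of the 16004 tested genes, without E2 (horizontal axis) and with E2 (vertical axis), with the 494 genes called with E2 in red and 15 genes beyond the axes not shown. MT1E lies in the upper left, higher with ketamine in the presence of E2 (1.34) and lower in its absence (-1.17), and KLF2 in the upper right, higher in both.

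Each combination was also set beside E2 alone. Both contrasts share the E2 libraries, so their values are only placed side by side. E2+ketamine differed from E2 in 180 genes (1.12%) and E2+(2R,6R)-HNK in 572 genes (3.57%) at the same thresholds. Of the 494 genes, 74 had a mean of at least 5 CPM over the 4 libraries, 42 higher and 32 lower. Of these 74, 2 changed by at least 1 against E2 with ketamine and 43 with (2R,6R)-HNK. The E2+ketamine mean was nearer to that of E2 alone than to that of E2+(2R,6R)-HNK in 73 of them, and the E2+(2R,6R)-HNK mean was nearer to E2 alone than to E2+ketamine in 46. These genes were chosen for the difference between the 2 combinations, which in part fixes such counts. They describe the chosen genes only. The E2+ketamine mean was nearer to that of ketamine alone than to that of (2R,6R)-HNK alone in 19. The E2+(2R,6R)-HNK mean was nearer to that of (2S,6S)-HNK alone than to that of (2R,6R)-HNK alone in 72.

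Among the named genes the share of the 2 combinations varied. For KRT7 the difference from E2 was 0.15 with ketamine and -1.61 with (2R,6R)-HNK, for SEMA5A -0.17 and 1.65, and for CPA4 -0.29 and -1.97. For MT1E it was 1.11 and -0.22 in the same order, for SLC6A9 1.16 and 0.13, and for MX1 1.66 and 0.68. SLC3A2 moved both ways, at 0.66 and -0.57, as did NQO1 at 0.50 and -0.69. INSIG1 was at -0.46 and 0.72, and HMGCS1 at -0.78 and 0.31.

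GC content of the exons moved with these differences. Across 15363 genes with an annotation, the Spearman correlation of the log2 fold change with GC content was 0.267 with E2, -0.391 without E2 and 0.366 for the interaction. Against E2 alone it was 0.533 for E2+ketamine and 0.201 for E2+(2R,6R)-HNK. The median GC content was 55.1% in the genes called higher, 49.8% in those called lower and 48.7% in all tested. With every library corrected for the GC content and length of its genes, 499 genes were called with E2, 419 of them in common with the uncorrected calls, and the correlation of the differences with and without E2 was -0.312. MT1E, SLC3A2, INSIG1 and the other named genes past the thresholds kept their side, apart from the exceptions given above. Whether the trend arose in the cells or in the preparation of the libraries was not tested.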

How the data were processed

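RNA-seq counts of 16 HMC3 libraries, 2 for each of 8 conditions, were used. The authors amplified cDNA (Ovation system), aligned paired reads to hg19 and counted uniquely mapped, non-discordant pairs per gene. The submitters' processing notes name TopHat2 2.0.14, Bowtie2 2.2.6 and featureCounts 1.4.6, whereas other versions of the aligners stand in the study's methods. What the authors deposited are raw counts for each gene and library. The strand setting, and which libraries shared a lane, are not given in the sources used here. Of counts from 1 to 9, 65.8% were even, against 49.9% of counts of 500 or more. Some counts may thus be of single reads and not of pairs. The counts were used as deposited, with halved counts as an alternative.

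One quasi-likelihood fit with 8 group means was made in edgeR 4.0.16 (R 4.3.3) after filterByExpr, which kept 16004 of 25370 genes, and TMM scaling, with Benjamini-Hochberg adjustment within each comparison. The spread was thus pooled over all conditions (8 residual degrees of freedom, common coefficient of variation 2.81%). The study names DESeq2, which was run as an alternative (version 1.42.0). A gene was called at an adjusted p under 0.05 where it also differed by 1 or more on the log2 scale. The libraries held 55300614 to 81646165 counts. Replicates differed by more than sampling noise in every group (mean chi-square per gene 2.71 to 4.50).

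Genes named in the text were the 12 with the largest change in each direction among those called with at least 5 CPM and no overlap of the groups, up to 4 called genes of each list (or the member with the smallest p where fewer than 2 were called), genes the study centres on, up to 5 of the largest in each direction without E2 and for the interaction, and some singled out by earlier results. Members, lists, motifs and tests were chosen with earlier results of these data known. The deposited table holds no comparison columns of the authors. Some members of the lists are not reported here.

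Gene models were GENCODE on GRCh37, and 96% of the tested genes had a GC content and length, used in a loess correction (span 0.5) for each library. Bases shared with other genes are given for some named genes only, so a gene without such a value may share bases too. Promoters were from RefSeq on GRCh38.p14, present for 8625 of the tested genes. On simulated counts for 16004 genes with 200 changed by a log2 fold change of 1.5 in the comparison of E2+ketamine with E2+(2R,6R)-HNK, edgeR recovered 98.5% with 1 false call. The changed genes were drawn only from genes above a floor of mean count, and all other genes were left unchanged. The simulation thus does not cover calls on few counts, nor data in which most genes pass the adjusted p. Other alternatives were upper-quartile scaling, other filters, the libraries of a comparison alone, the replicate number as a block, and each library left out in turn, where the lone library is assumed to vary like the others.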

Additional observations from a re-analysis of the deposited data

Results flagged for a closer look

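The difference between ketamine and (2R,6R)-HNK changed with E2 for 1111 genes at the thresholds of the study, by the test of the interaction. The cause was not tested. Among the named genes with a mean of at least 5 CPM, the 5 largest positive interactions were those of MT1E at 2.51, SLC30A1 at 2.18, KRT7 at 2.14, MT1F at 1.99 and MT1X at 1.94 on the log2 scale. The 5 largest negative ones were those of KCNAB2 at -2.37, HTRA1 at -2.17, IGFBP5 at -2.17, SEMA5A at -2.06 and KIRREL3 at -1.93. In each of these 10 genes the difference passed the adjusted p in opposite directions with and without E2 (edgeR). The difference without E2 did not pass for SEMA5A after the correction for GC content (0.06) and without replicate 1 of ketamine (0.17), nor for HTRA1 by DESeq2 (0.31), without either replicate of ketamine (0.32 and 0.33) or without replicate 1 of (2R,6R)-HNK (0.29).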

How the results depend on the processing

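The count of genes called with E2 stayed within 1.5 times of 494 under the alternatives, from 409 by DESeq2 to 505 with upper-quartile scaling, except that a requirement of 10 counts in every library gave 286 (130 higher and 156 lower) because it removes genes of low count. Without E2 that filter gave 54 calls (37 higher, 17 lower), DESeq2 gave 48 (36 higher, 12 lower), and no filter left 24 lower calls, and the cause of the last 2 shifts was not tested. Leaving out each library in turn gave 454 to 473 calls with E2 (175 to 211 higher, 252 to 291 lower), 114 to 143 without E2 and 1037 to 1177 for the interaction. With the replicate number as a block, 491 genes were called with E2 (201 higher, 290 lower), 486 of them shared with the fit without it, 127 without E2 and 1090 for the interaction. The numbers share no stated origin, and the deviations of same-numbered libraries correlated at -0.0104 across all genes tested, so they were not taken as pairs. For the comparison with E2, of the 1304 values of 101 named genes under the alternatives, 1251 kept their direction and side of the adjusted p, 34 lost it, 13 gained it and 6 turned. Those that turned were C1R (-0.0027 after the correction for GC content, -0.0026 with the block added and from -0.0047 to 0.09 with each library left out, below 0 without replicate 2 of E2+(2R,6R)-HNK), CEBPD (-0.06 after either correction) and SYN1 (-0.81 to 0.36 with each library left out, above 0 without replicate 2 of E2+(2R,6R)-HNK), and none of the 3 had passed. For 29 genes described without E2, 844 of 870 values of the difference without E2 and of the interaction kept direction and side, 17 lost it, 1 gained it and 8 turned, all 8 of them differences without E2. These were STAT3 (-0.04 after either correction), HMOX1 (0.09 after the correction for GC content and 0.10 with the block added), SLC6A9 (0.09 after either correction, and -0.10 to 0.01 with each library left out, above 0 without replicate 2 of (2R,6R)-HNK) and CPA4 (-0.01 to 0.04 with each library left out, below 0 without replicate 1 of (2R,6R)-HNK). Genes of few counts (ANXA10, OAS2, CXCL5, MMP1, HSPB8 and C5) rest on depth that limits their calls.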
